A study of Mus musculus with 6 samples.

Results

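Collagen chain genes encode the polypeptides of the collagen triple helix. They were taken as every protein-coding gene of the deposited table whose symbol is Col, a number, a and a number. The rule reads the symbol and the gene type. This gave 44 of 54532 genes, 11 fibrillar chains, 6 chains of the basement membrane network (type IV) and 27 others. The RNA was of injured spinal cord, and the mice were C57BL/6J. The trained group (3 libraries) had received rotarod training, in which mice walk on a turning rod, and the untrained group (3 libraries) had not. All 6 libraries carry the label of day 28, counted from training, and both groups share the injury, so no library shows uninjured cord. The labels give no age and no level of injury, and do not say whether a library is 1 mouse, so a p-value speaks only for the variation among these libraries, part of which may be technical. Libraries held 15814104 to 26092014 counts, at which 3 counts, the floor for detection, are 0.115 to 0.190 CPM, the count scaled to a common library size.

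Collagens are trimers of chains with long runs of glycine-rich triplets. Fibrillar chains (types I, II, III, V, XI and the minor types XXIV and XXVII) assemble into the fibres of connective tissue, where type I is the main component, type III accompanies it and type V starts fibril growth. Type IV chains form the sheet-like network of basement membranes, which in the cord lie around blood vessels and under the meninges. After a cord injury collagens are known as part of the fibrous scar, laid down mainly by fibroblast-like cells of the meninges and vessels.

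1 library stood apart. Trained replicate 1 was the lowest library in 29 of the 40 collagen chain genes with enough counts to be tested (72.5%), against 18.7% of all genes tested. Summed over the 44 genes, the trained libraries reached 567, 1151 and 1368 CPM, in the order of their replicate numbers as throughout, and untrained libraries 1200, 905 and 824 CPM. The trained group thus held both the lowest and the highest total. Of fibroblast markers (9 genes, among them Mgp and Fmod), the summed level was 87.8 CPM in trained replicate 1 and 244 to 402 CPM in the other libraries. Of Schwann cell markers (7 genes, Prx and Drp2 the highest per length), it was 51.4 CPM there and 142 to 244 CPM elsewhere. Drp2 alone was 42.9 CPM of that sum there, and 63.6 to 93.0 CPM elsewhere. Trained replicate 1 was also lowest for the summed endothelial markers (402 CPM, and 427 to 578 CPM elsewhere). The same held for pericyte and smooth muscle markers (212 CPM, and 249 to 337 CPM elsewhere). In bulk RNA fewer cells of a type and less RNA per cell cannot be told apart, and the part of these markers in the collagen values was not tested. Log2 fold changes without trained replicate 1 are given for the classes and for many of the genes, and the plot of log2 fold changes shows both values for each tested collagen chain gene.

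**Figure D1:**
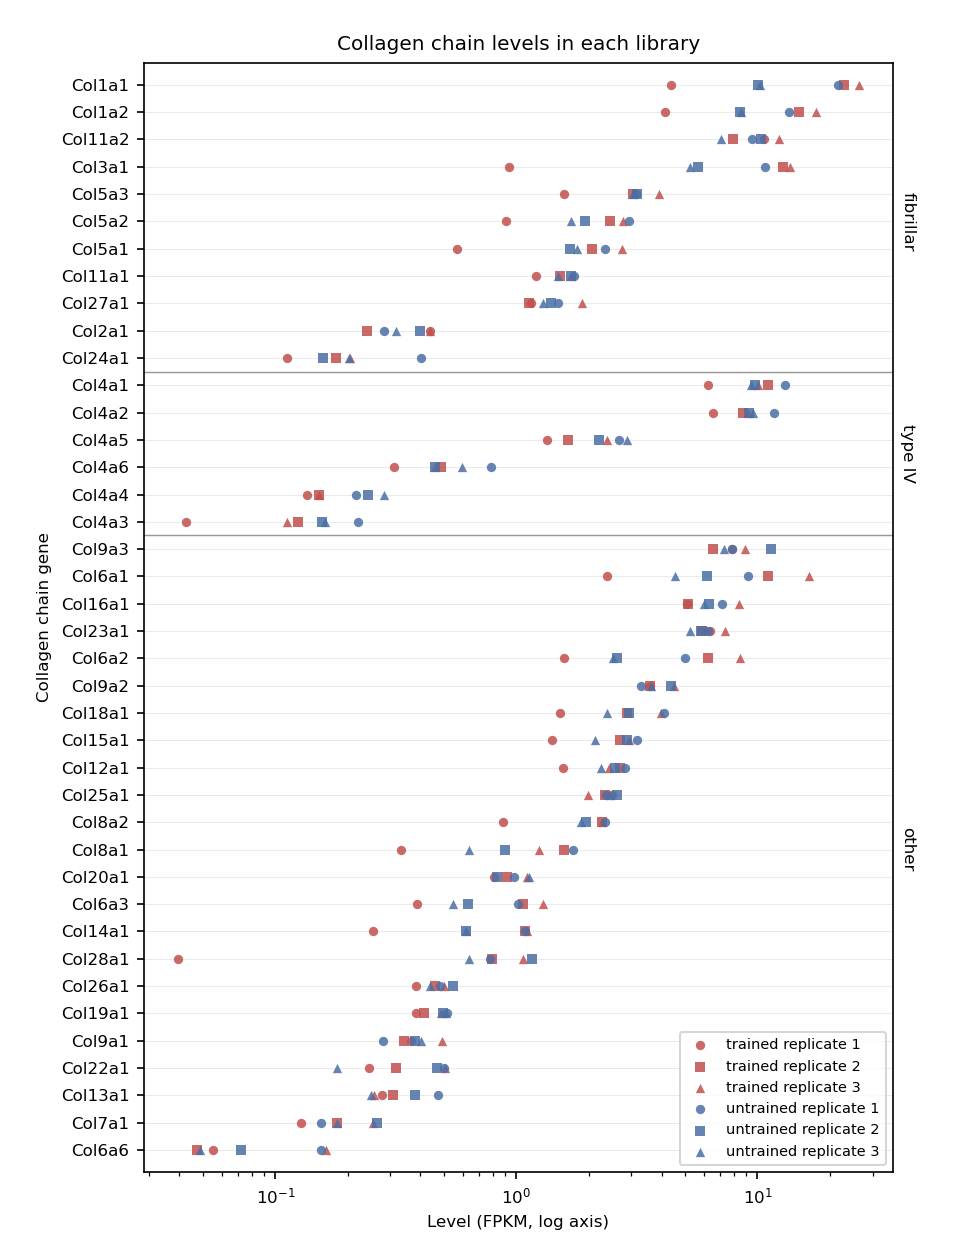
Level of each tested collagen chain gene in each library, in FPKM (CPM per kilobase of deposited gene length, log axis), by class, with circles, squares and triangles for replicates 1, 2 and 3 of the trained (red) and untrained (blue) group. Trained replicate 1 lies left of the other libraries in 29 of 40 genes, while Col23a1 and Col25a1 lie close together in all 6 libraries.

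Between trained and untrained cord 0 of 40 tested collagen chain genes passed edgeR's quasi-likelihood test at an adjusted p of 0.05, against 0.0591% of all 16909 genes tested. DESeq2 and limma-voom called 0 of the 40 as well (backgrounds 0.532% and 0.0710%), and so did edgeR without trained replicate 1 (background 0.122%). With no filter on low counts 2 passed, Col4a2 and Col4a5 (background 0.909%). At an unadjusted p below 0.05 there were 5 of 40 lower in trained cord (background 5.55%), all of type IV, and 0 higher (background 4.47%). In 4 genes, Col4a2, Col4a3, Col4a4 and Col19a1, every trained library lay below every untrained one (background 8.69%), and in 0 genes above (background 8.13%). The median log2 fold change, trained over untrained, was -0.13 over the 40 genes and -0.0080 over all genes tested. It was -0.55 in the type IV class, -0.014 in the fibrillar class and -0.12 among the others, with 28 of 40 values below 0 (background 52.0%). The smallest adjusted p in edgeR was 0.371, for Col4a4. Without trained replicate 1, the medians were -0.37 for type IV, 0.17 for fibrillar and 0.11 for other chains.

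**Figure D2:**
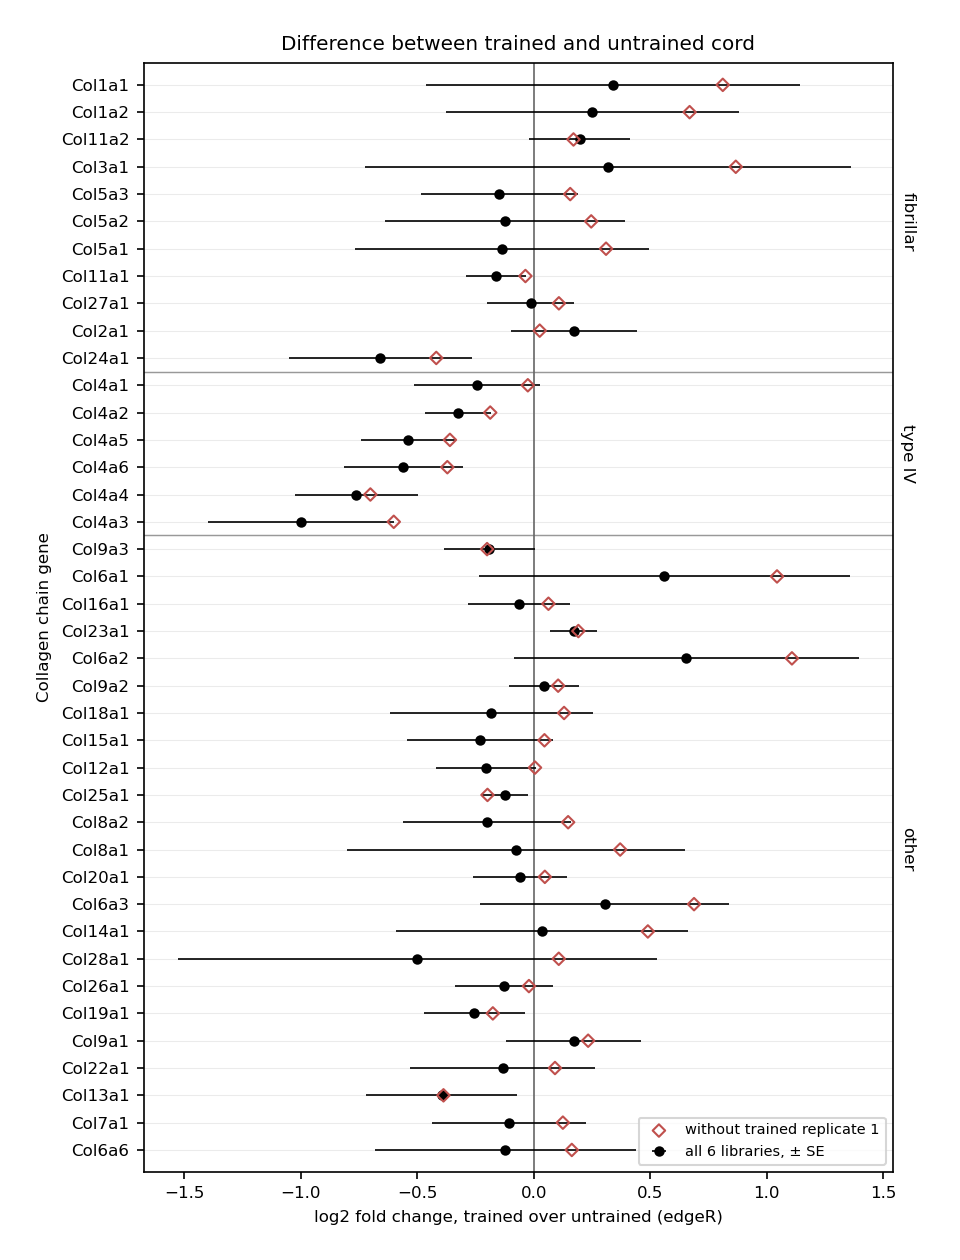
Log2 fold change of each tested collagen chain gene, trained over untrained, by class, from all 6 libraries (black, ± SE) and without trained replicate 1 (open red diamonds). The 6 type IV chains lie below 0 in both fits, while 2 of 11 fibrillar chains lie below 0 without that library and 6 of 11 with it.

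Of the 3 classes, type IV was the one with every member lower in trained cord (background 52.0%). The log2 fold changes ran from -0.24 (Col4a1) to -1.0 (Col4a3), and 5 of 6 had an unadjusted edgeR p below 0.05 (background 5.55%). None passed over all genes. They are encoded as 3 pairs that lie head to head: Col4a1 with Col4a2 on chromosome 8, Col4a3 with Col4a4 on chromosome 1 and Col4a5 with Col4a6 on the X chromosome. Members of a pair point away from each other.

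Col4a1 and Col4a2 make the network present in nearly all basement membranes, and per length they were the most abundant of the class, at 9.92 and 9.16 FPKM on average. Col4a1 was at 46.4, 82.7 and 75.0 CPM in trained and 97.1, 72.9 and 70.4 CPM in untrained cord. The groups overlapped, with trained replicate 1 alone at the bottom and untrained replicate 1 alone at the top. Its log2 fold change was -0.24 ± 0.27 (SE, edgeR adjusted p = 0.817), and -0.026 without trained replicate 1. Col4a2 was at 43.3, 57.7 and 60.7 CPM in trained and 77.2, 61.0 and 63.7 CPM in untrained cord. All trained values lay below all untrained ones, but trained replicate 3 and untrained replicate 2 differed by less than 1 CPM. The log2 fold change was -0.33 ± 0.14 (SE, edgeR unadjusted p = 0.0491, adjusted p = 0.497), and -0.19 without trained replicate 1.

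Col4a3 and Col4a4 join Col4a5 in the network best known from the kidney filter. Both were scarce here, at 0.136 and 0.197 FPKM. Col4a3 was at 0.426, 1.24 and 1.117 CPM in trained and 2.18, 1.56 and 1.597 CPM in untrained cord, from 11 to 40 reads per library. The groups did not overlap, and trained replicate 1 lay far below the rest. The difference was -1.0 ± 0.40 on the log2 scale (SE, edgeR unadjusted p = 0.0267, adjusted p = 0.433), and -0.60 without trained replicate 1. Col4a4 was at 1.43, 1.61 and 1.61 CPM in trained and 2.29, 2.58 and 3.003 CPM in untrained cord, from 26 to 47 reads per library. Here trained replicate 1 was near its group and the groups did not overlap. Trained replicate 3 and untrained replicate 1 were the closest libraries across the gap, which was narrower than the span of the untrained group. The log2 fold change was -0.76 ± 0.26 (SE, edgeR unadjusted p = 0.0125, adjusted p = 0.371), and -0.70 without trained replicate 1.

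Col4a5 and Col4a6 form a further network, found around smooth muscle among other sites. Col4a5 was at 8.98, 11.0 and 16.01 CPM in trained and 17.97, 14.8 and 19.2 CPM in untrained cord. Trained replicate 3 lay above untrained replicate 2, so the groups overlapped by that 1 library. The log2 fold change was -0.54 ± 0.20 (SE, edgeR unadjusted p = 0.0233, adjusted p = 0.426). Without trained replicate 3 it was -0.78 and passed over all genes (edgeR adjusted p = 0.0208), in a fit that called 1.29% of all genes. Without trained replicate 1 it was -0.36. Col4a6 was at 2.48, 3.89 and 3.66 CPM in trained and 6.23, 3.66 and 4.73 CPM in untrained cord. Untrained replicate 2 lay inside the trained range. The log2 fold change was -0.56 ± 0.25 (SE, edgeR unadjusted p = 0.0462, adjusted p = 0.493), and -0.37 without trained replicate 1.

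**Figure D3:**
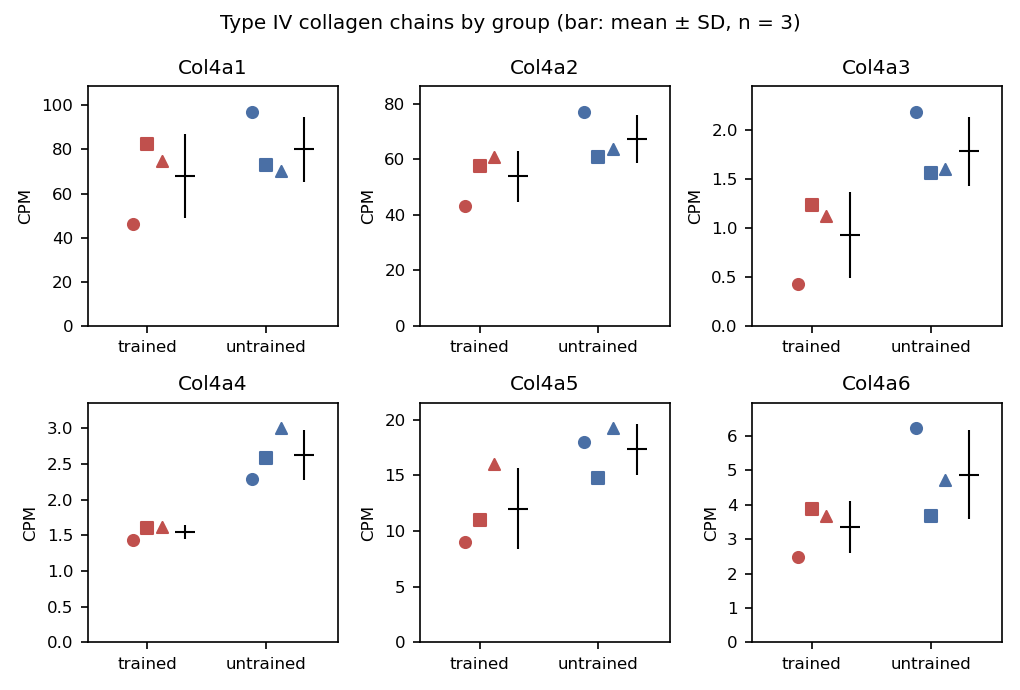
CPM of the 6 type IV chains in trained (red) and untrained (blue) cord, with circles, squares and triangles for replicates 1, 2 and 3 and bars for the mean ± SD (n = 3). The groups do not overlap in Col4a2, Col4a3 and Col4a4 (background 8.69%), and trained replicate 1 is the lowest library in all 6 panels (background 18.7%).

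All 6 type IV log2 fold changes stayed below 0 in every one of the 6 fits that left out a library. Those at an unadjusted p below 0.05 numbered 1 of 6 when replicate 1 of either group or replicate 3 of the untrained group was left out, and 3 to 5 of 6 in the other fits of this kind. The backgrounds were 4.51%, 4.40% and 7.47% without trained replicates 1, 2 and 3 and 3.97%, 4.42% and 3.72% without the untrained ones. The 9 endothelial markers all had log2 fold changes below 0, with a median of -0.18. Of them, 3 were lower at an unadjusted edgeR p below 0.05 (Pecam1, Flt1 and Slco1a4, background 5.55%), and 0 passed the test over all genes. With no filter on low counts, the setting in which Col4a2 and Col4a5 passed, Flt1 and Pecam1 passed too (edgeR adjusted p = 0.0031 and 0.0152). Without trained replicate 1, 8 of the 9 were below 0 (median -0.097). Their summed level was 402, 473 and 427 CPM in trained and 578, 488 and 464 CPM in untrained cord. The 7 tested markers of pericytes and smooth muscle were also all below 0 (median -0.22, and -0.077 without trained replicate 1, 0 at an unadjusted p below 0.05 in both). All below 0 as well were the 6 tested Schwann cell markers (median -0.30) and the 5 markers of sensory ganglion neurons (median -0.58). Below 0 were 7 of 9 fibroblast, 7 of 11 spinal cord cell, 4 of 7 bone and cartilage and 0 of 3 skeletal muscle markers (background 52.0%). Whether these markers have a part in the type IV values was not tested.

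The places where the paired starts meet are shown for 2 pairs, from RefSeq on GRCm38.p6, because each lies at the start of both genes. The gene models of Col4a2 (plus strand) and Col4a1 (minus strand) overlap by their first 22 bases, at chr8:11312805-11312826, given on the plus strand. This stretch lies inside both models. Between Col4a4 (minus strand) and Col4a3 (plus strand) lie 71 bases at chr1:82586850-82586920, upstream of both and given on the minus strand. Capitals mark GGGCGG, the GC box.
Col4a2-Col4a1: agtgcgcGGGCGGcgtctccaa
Col4a4-Col4a3: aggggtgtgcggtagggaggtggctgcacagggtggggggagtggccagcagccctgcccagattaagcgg
The starts of Col4a5 and Col4a6 lie 1308 bases apart, and that stretch is not shown. The reads of Col4a1 and Col4a2 could be shared only over the 22 bases, of gene models of 7464 and 6619 bases. The per-length ratio of Col4a3 to Col4a4 varied from 0.317 in trained replicate 1 to 1.014 in untrained replicate 1, at these low counts, while that of Col4a1 to Col4a2 stayed between 0.9502 and 1.27.

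The fibrillar chains were low in trained replicate 1 to graded degrees. Their values there ran from 8.67% (Col3a1) to 138% (Col2a1) of the median of the other 5 libraries, and 8 of 11 were lowest there. Col1a1 and Col1a2, the chains of type I, had the highest levels of all 44 genes, at 15.9 and 11.2 FPKM on average. Col1a1 was at 28.8, 149 and 173 CPM in trained and 141, 65.9 and 67.4 CPM in untrained cord. Trained replicates 2 and 3 were the highest libraries and trained replicate 1 the lowest, so that the untrained group lay wholly inside the trained range. Col1a2 had the same order at the ends, with 51.3, 185 and 218 CPM in trained and 168, 106 and 107 CPM in untrained cord. Col3a1, the type III chain, was at 9.18, 126 and 134 CPM in trained and 106, 55.5 and 51.6 CPM in untrained cord. Its value in trained replicate 1 was 8.67% of the median of the other 5 libraries, against 20.4% for Col1a1 and 30.6% for Col1a2.

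None of these 3 chains differed beyond that spread. The log2 fold changes were 0.34 ± 0.80 for Col1a1, 0.25 ± 0.63 for Col1a2 and 0.32 ± 1.04 for Col3a1 (SE, edgeR adjusted p = 0.926, 0.931 and 0.9501). Without trained replicate 1 they were 0.81, 0.67 and 0.87 (edgeR adjusted p = 0.738, 0.611 and 0.685), and without trained replicate 3 they were -0.047, -0.098 and -0.096. Limma-voom, which works on log values, gave -0.46 for Col3a1. The 3 genes lay at the 99.0 to 99.8 percentile of the biological coefficient of variation among all genes tested. The per-length ratio of Col3a1 to Col1a1, looked at after the values were seen, was 0.213 in trained replicate 1 and 0.501 to 0.563 in the other 5 libraries. The 2 genes thus kept nearly 1 ratio in 5 libraries, over a range of Col1a1 from 65.9 to 173 CPM, and departed from it in the library where both were lowest.

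Sequence before the RefSeq start is shown for Col3a1 and Col1a2, the 2 chains of this trio with a window in the RefSeq table (GRCm38.p6, both on the plus strand). For Col3a1 these are the 250 bases before the start, chr1:45311288-45311537, with capitals for TATAAA. For Col1a2 they are the 123 bases between annotated exons, chr6:4505370-4505492, with capitals for GGGCGG. The gene model behind the counts starts earlier, at 4504814, so this stretch begins 556 bases inside that model and lies upstream only of the RefSeq start at 4505618.
Col3a1: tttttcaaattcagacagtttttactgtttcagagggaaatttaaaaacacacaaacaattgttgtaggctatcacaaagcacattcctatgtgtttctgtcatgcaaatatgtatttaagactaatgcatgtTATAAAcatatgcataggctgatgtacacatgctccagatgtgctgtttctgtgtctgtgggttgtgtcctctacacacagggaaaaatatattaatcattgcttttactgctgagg
Col1a2: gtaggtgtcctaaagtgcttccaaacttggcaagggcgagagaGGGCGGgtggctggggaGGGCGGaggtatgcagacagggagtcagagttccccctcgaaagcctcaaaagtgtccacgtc
Both genes were lowest in trained replicate 1 and highest in trained replicate 3. G and C made up 35.2% of the stretch of Col3a1 and 59.3% of that of Col1a2. Of the 44 genes, 35 had 38 windows in that table. In the 250 bases before the start, TATAAA was found on either strand in 13.2% of these windows and 12.4% of all 32851, CCAAT in 34.2% and 33.8%, and GGGCGG in 57.9% and 32.7%. A match is a description of the letters only. None of the 3 motifs contains another.

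The type V chains, which join type I fibrils, were also lowest in trained replicate 1. Col5a1 was at 4.80, 17.4 and 23.2 CPM in trained and 19.8, 14.1 and 15.1 CPM in untrained cord, with a log2 fold change of -0.14 ± 0.63 (SE, edgeR adjusted p = 0.966). Col5a2 was at 37.2% and Col5a3 at 50.7% of the median of the other 5 libraries in trained replicate 1. Their log2 fold changes were -0.12 ± 0.51 and -0.15 ± 0.34 (SE). Without that library the 3 were 0.31, 0.25 and 0.16, so their signs turned.

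Col11a2 and Col11a1, chains of type XI, which is best known from cartilage, did not share the low values to that degree. Col11a2 was the third fibrillar chain by level per length, at 9.63 FPKM, above Col3a1 at 8.18 FPKM. It was at 72.6, 54.2 and 84.0 CPM in trained and 65.1, 70.7 and 48.1 CPM in untrained cord, and trained replicate 1 lay in the upper part of that range. Its log2 fold change was 0.20 ± 0.22 (SE, edgeR adjusted p = 0.815). Col11a1 was at 15.4, 19.3 and 21.4 CPM in trained and 22.1, 21.5 and 18.9 CPM in untrained cord (log2 fold change -0.16 ± 0.13 SE, edgeR adjusted p = 0.712). Trained replicate 1 was its lowest library, at 72.0% of the median of the other 5. Col2a1, the main cartilage chain, was at 4.07, 2.22 and 4.03 CPM in trained and 2.62, 3.66 and 2.94 CPM in untrained cord, low throughout, and its highest value was in trained replicate 1 (log2 fold change 0.17 ± 0.27 SE, edgeR adjusted p = 0.876). Of the minor fibrillar chains, Col24a1 was at 0.852, 1.36 and 1.55 CPM in trained and 3.06, 1.20 and 1.53 CPM in untrained cord. Its log2 fold change of -0.66 ± 0.39 (SE, edgeR adjusted p = 0.5999) was -0.14 without untrained replicate 1, its highest library, and -0.42 without trained replicate 1. Col27a1 had a log2 fold change of -0.014.

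The type VI chains form beaded microfibrils at cell surfaces, and Col6a1, Col6a2 and Col6a3 make the common form. Col6a1 and Col6a2 had the largest positive differences of the 40 genes, with wide spreads. Col6a1 was at 10.4, 48.4 and 71.6 CPM in trained and 39.9, 27.1 and 19.9 CPM in untrained cord. Col6a2 was at 13.2, 51.7 and 70.3 CPM in trained and 41.7, 21.7 and 21.0 CPM in untrained cord. In both, trained replicates 2 and 3 lay above every untrained library and trained replicate 1 below every one. The log2 fold changes were 0.56 ± 0.80 for Col6a1, 0.65 ± 0.74 for Col6a2 and 0.30 ± 0.54 for Col6a3 (SE, edgeR adjusted p = 0.869, 0.822 and 0.896). Without trained replicate 1 they were 1.04, 1.11 and 0.69 (edgeR adjusted p = 0.615, 0.625 and 0.522), and without trained replicate 3 they were -0.0062, 0.18 and -0.023. Col6a4, Col6a5 and Col6a6, which can take the place of Col6a3, were at 0.0442 to 0.0901 FPKM. Col6a4 and Col6a5 did not have enough counts to be tested.

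The fibril-associated chains sit on the surface of fibrils. Their biological coefficients of variation had a median at the 70.4 percentile of all genes tested, from 59.8 (Col9a2) to 99.0 (Col14a1), and 5 of the 9 were lowest in trained replicate 1. Col9a3 was the most abundant of the non-fibrillar, non-type IV chains, at 8.29 FPKM and close to Col6a1 at 8.26 FPKM, with 30.2, 25.1 and 34.2 CPM in trained and 30.2, 44.0 and 28.0 CPM in untrained cord (log2 fold change -0.19 ± 0.19 SE, edgeR adjusted p = 0.796). Untrained replicate 2 set that sign, since without it the value was 0.036. Its partners Col9a2 and Col9a1 had log2 fold changes of 0.044 and 0.17. Col16a1, a chain of the same group, was at 34.4, 34.6 and 56.5 CPM in trained and 47.9, 42.3 and 40.6 CPM in untrained cord (-0.064 ± 0.22 SE, and 0.063 without trained replicate 1). Col12a1 was at 60.7% of the median of the other 5 libraries in trained replicate 1, and Col14a1, which binds to type I fibrils, at 23.4%. The log2 fold changes of Col12a1 and Col14a1 were -0.20 and 0.036 with that library and 0.0051 and 0.49 without it. Col19a1, known from interneurons of the brain, was at 2.63, 2.84 and 3.35 CPM in trained and 3.55, 3.42 and 3.51 CPM in untrained cord. The groups did not overlap, but trained replicate 3 was close to the untrained libraries, and the log2 fold change was -0.25 ± 0.22 (SE, edgeR adjusted p = 0.737). Col20a1 and Col22a1 had log2 fold changes of -0.060 and -0.13.

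Of the transmembrane chains, anchored in the cell membrane, Col23a1 and Col25a1 varied little between libraries and Col13a1 varied more. Col23a1 was at 36.3, 33.8 and 42.0 CPM in trained and 35.9, 33.5 and 30.1 CPM in untrained cord (log2 fold change 0.17 ± 0.10 SE, edgeR adjusted p = 0.593). Col25a1, a neuronal membrane collagen needed for motor nerves to reach muscle, was at 32.3, 30.1 and 25.8 CPM in trained and 30.6, 33.9 and 31.7 CPM in untrained cord (-0.12 ± 0.10 SE, edgeR adjusted p = 0.719). Their biological coefficients of variation lay at the 37.5 and 37.3 percentiles of all genes tested, whereas the median of the 40 genes was at the 86.5 percentile. Col13a1, found at nerve-muscle contacts, was at 1.28, 1.42 and 1.18 CPM in trained and 2.18, 1.74 and 1.15 CPM in untrained cord, with overlap (-0.40 ± 0.32 SE, edgeR adjusted p = 0.722), and its coefficient of variation was at the 83.1 percentile. Col17a1, an epithelial anchor of the skin, had 0 to 6 reads and was not tested.

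The remaining tested chains each had their lowest value in trained replicate 1. The multiplexins Col15a1 and Col18a1, which lie at basement membranes and carry antiangiogenic end fragments, were at 48.9% and 51.5% of the median of the other 5 libraries there. Their log2 fold changes were -0.23 ± 0.31 and -0.18 ± 0.43 (SE), and 0.046 and 0.13 without that library. Col8a1 and Col8a2, short chains that form networks in vessel walls and under the corneal endothelium, were at 26.6% and 39.0%. Without that library their log2 fold changes were 0.37 and 0.15, against -0.077 and -0.20 with it. Col28a1, a beaded collagen known from peripheral nerve, had the lowest value there relative to the other libraries among the tested collagen chain genes, 4.98% of their median. It was at 0.194 CPM (5 reads) in trained replicate 1, 3.89 and 5.21 CPM in trained replicates 2 and 3, and 3.82, 5.71 and 3.13 CPM in the untrained ones. Its log2 fold change of -0.50 ± 1.03 (SE, edgeR adjusted p = 0.914) was 0.11 without trained replicate 1. Col7a1, of the anchoring fibrils of skin, and Col26a1 had log2 fold changes of -0.11 and -0.13, and Col10a1, of growth plate cartilage, had 0 to 3 reads and was not tested.

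**Figure D4:**
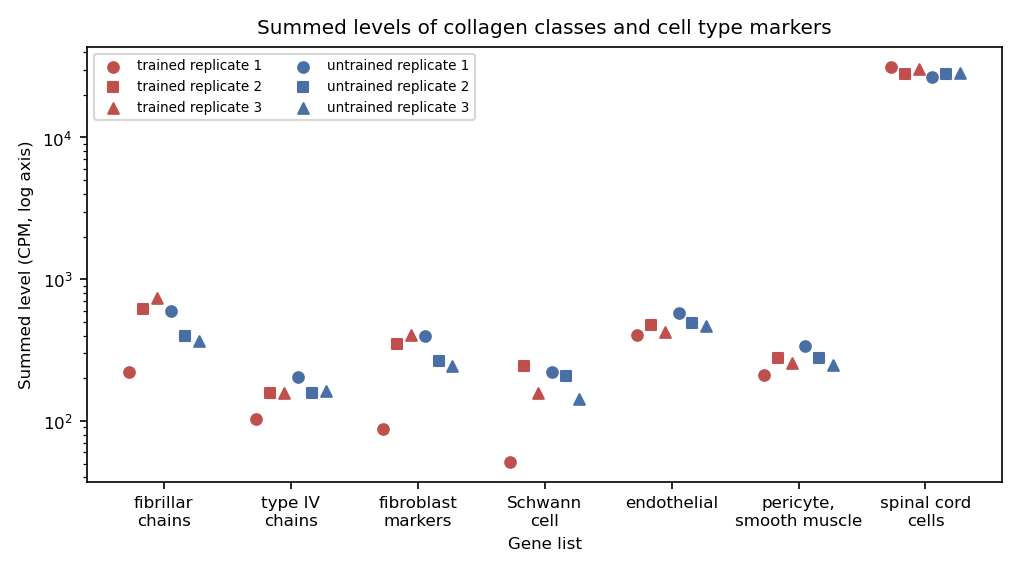
Summed CPM (log axis) in each library of the fibrillar and type IV chains and of marker lists for 5 cell groups, with circles, squares and triangles for replicates 1, 2 and 3 of the trained (red) and untrained (blue) group. Trained replicate 1 is lowest for fibrillar chains (221 CPM), type IV chains (103 CPM), fibroblast markers (87.8 CPM) and Schwann cell markers (51.4 CPM). It is also lowest for endothelial (402 CPM) and for pericyte and smooth muscle markers (212 CPM). It is highest for the sum of spinal cord cell markers (31551 CPM), of which Mbp alone is 23133.5 CPM. Of these 11 markers, 3 are highest in that library.

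The summed fibrillar level was 221, 613 and 737 CPM in trained and 596, 396 and 366 CPM in untrained cord. The fibroblast markers were at 87.8, 349 and 402 CPM and 399, 263 and 244 CPM, with trained replicate 1 lowest and trained replicate 3 highest in both sums. Of these 9 markers, 9 had their lowest value in trained replicate 1, and none was at 0 there. Schwann cell markers were at 51.4, 244 and 158 CPM in trained and 222, 207 and 142 CPM in untrained cord, with all 6 tested genes lowest in trained replicate 1 and Pmp2 at 0 in 3 libraries. Prx, a periaxin gene of peripheral myelin, was at 0.581 CPM there and 46.0 to 99.7 CPM elsewhere. Markers of bone and cartilage summed to 25.2 to 34.2 CPM (Alpl and Dmp1 the highest per length). Markers of skeletal muscle summed to 2.17 to 8.29 CPM (Acta1 and Tnnt3 the highest per length). Of the 3 tested muscle markers, 2 were higher in trained cord at an unadjusted edgeR p below 0.05 (background 4.47%). Markers of sensory ganglion neurons summed to 77.9 to 139 CPM (Prph and Isl2 the highest per length, Scn10a at 0 in 2 libraries). Prph alone was 73.9 to 118 CPM, and 84.1 of 89.1 CPM in trained replicate 1, so this sum mainly describes Prph. Scn10a was at 0 CPM and Trpv1 at 0.077 CPM in trained replicate 1, with Trpv1 at 0 in trained replicate 2. Trained replicate 1 was not the lowest library in any of these 3 sums. The 11 markers of spinal cord cells, led by Mbp and Gfap, were all detected and summed to 26778 to 31551 CPM. The sum was highest in trained replicate 1, where Mbp alone was 23133.5 CPM, and 3 of the 11 markers were highest there. The part of these cell types in the collagen values was not tested.

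Partner chains of 1 trimer were compared as ratios of their per-length levels within each library. For 7 pairs (Col1a1 to Col1a2, Col4a1 to Col4a2, Col4a3 to Col4a4, Col5a1 to Col5a2, Col6a1 to Col6a2, Col8a1 to Col8a2 and Col9a1 to Col9a2), the exact permutation test, two-sided, gave p from 0.4 to 1 and 0.933 to 1 after Benjamini-Hochberg adjustment, where 3 against 3 cannot go below 0.1. Col1a1 to Col1a2, whose proteins join as a pair of the first and a single chain of the second, had a ratio of 1.06, 1.53 and 1.498 in trained and 1.59, 1.18 and 1.20 in untrained cord. The ratio was highest in the 3 libraries with the highest Col1a1 level and lowest in trained replicate 1. Col6a1 to Col6a2 was at 1.498 to 2.37 and Col9a1 to Col9a2 at 0.0849 to 0.112. Col5a1 to Col5a2 was at 0.623 to 1.06 and Col8a1 to Col8a2 at 0.344 to 0.738.

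The genes that process collagen were measured as a list of 34, all tested, and 0 passed over all genes in edgeR. At an unadjusted p below 0.05, 0 were lower (background 5.55%) and 1 of the 34 was higher (background 4.47%). That gene was Adamts2, the proteinase that trims the amino end of type I and III procollagen, at 29.4, 37.2 and 37.9 CPM in trained and 31.0, 25.2 and 25.9 CPM in untrained cord. Untrained replicate 1 lay above trained replicate 1, and the log2 fold change was 0.34 ± 0.12 (SE, edgeR adjusted p = 0.365). Fkbp14, a folding factor of the endoplasmic reticulum, was at -0.27 ± 0.13 and the prolyl 3-hydroxylase P3h2 at -0.35 ± 0.19 (SE, edgeR adjusted p = 0.512 and 0.549). Fkbp14 was at 13.5, 17.1 and 17.81 CPM in trained and 19.4, 20.7 and 17.83 CPM in untrained cord, barely without overlap. It was the 1 gene of the 34 lower in this way (background 8.69%), and 1 was higher (background 8.13%). P3h2 was at 4.88, 5.19 and 6.70 CPM in trained and 7.54, 7.69 and 6.01 CPM in untrained cord, with overlap. The list had a median of -0.042, and 0.038 without trained replicate 1, where Adamts2 was at 0.46 (edgeR adjusted p = 0.244), Fkbp14 at -0.15 and P3h2 at -0.25. By role, the medians were -0.058 for 10 hydroxylases, -0.041 for 11 chaperones, export factors and sugar transferases, 0.072 for 8 proteinases and enhancers and -0.062 for 5 cross-linking oxidases. Of the 34 genes, 21 were lowest in trained replicate 1. Pcolce, an enhancer of procollagen trimming, was at 4.72 CPM in that library and 13.0 to 30.7 CPM elsewhere, and Lox, lysyl oxidase, at 2.75 and 10.4 to 15.7 CPM, both picked after their values were seen. P4hb, a subunit of prolyl 4-hydroxylase with wider use in protein folding, was at 192 to 220 CPM in all 6 libraries.

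Collagen receptors were measured as a list of 11, of which 10 were tested and 0 passed over all genes in edgeR. At an unadjusted p below 0.05, 0 were higher (background 4.47%) and 1 of the 10 was lower in trained cord (background 5.55%): Itgb1, the beta chain shared by the collagen-binding integrins. It was at 127, 150 and 156 CPM in trained and 176, 172 and 168 CPM in untrained cord, and the groups did not overlap. The log2 fold change was -0.26 ± 0.08 (SE, edgeR adjusted p = 0.340). Itga2, an alpha chain of a collagen-binding integrin, was at 0.697, 1.61 and 1.86 CPM in trained and 2.84, 2.10 and 1.92 CPM in untrained cord (-0.76 ± 0.37 SE, edgeR adjusted p = 0.514), also without overlap. In these 2 of the 10 receptors every trained library lay below every untrained one (background 8.69%). Without trained replicate 1 the log2 fold changes were -0.17 for Itgb1 and -0.40 for Itga2. Lair1, an inhibitory receptor of immune cells, was at -0.26 ± 0.13 (SE, edgeR adjusted p = 0.533). Its levels were 20.8, 19.1 and 28.4 CPM in trained and 27.9, 27.8 and 26.1 CPM in untrained cord, with overlap. The median of the list was -0.082, and 0.070 without trained replicate 1, and 7 of the 10 were lowest in trained replicate 1. The platelet receptor gene Gp6 had 0 reads in all 6 libraries, which allows up to 0.115 to 0.190 CPM.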

How the data were processed

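The authors deposited raw read counts per Ensembl gene for 6 libraries, with symbols, positions, biotypes and lengths. Bowtie 0.12.2 and 2 builds, mm8 and mm9, appear in the submitters' processing notes without a role. Which counter and annotation were used, and whether strand was, is not given in the sources used here. All 44 members have the ends of GENCODE M21 (GRCm38), and 42 of the deposited lengths equal its merged exons. Of the members, 28 overlap another gene, and their reads may be shared where strand was not used.

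The test was edgeR's quasi-likelihood test (edgeR 4.0.16, R 4.3.3), with TMM factors, filterByExpr, robust dispersions and no term but group. P-values were adjusted by Benjamini-Hochberg over 16909 genes (threshold 0.05). The scripts were tested on simulated data. CPM and FPKM use the TMM-scaled library sizes and the deposited lengths. SE is the log2 fold change over the square root of F. Depth differs and is greatest in trained replicate 1, so at a given CPM counting error is smallest there. Genes low in that library can still have their fewest reads there, such as Col3a1 (237) and Col28a1 (5). Members, classes and lists (collagen processing, receptors, and markers of fibroblasts, endothelium, pericytes, Schwann cells, bone, muscle, sensory neurons and cord) were chosen with earlier results of these data known. From the Schwann cell and cord lists 1 marker each is not reported here and was left out of the sums. Libraries are given in full for the 4 highest and the 4 of smallest p per class (for processing and receptor genes, the 3 of smallest p), with others added after their values were seen. Alternatives were DESeq2 1.42.0, limma-voom (limma 3.58.1), other scalings and filters, a replicate block and leaving out each library.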

Additional observations from a re-analysis of the deposited data

How the results depend on the processing

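The count over all genes was 10 and became 276 with no filter on low counts, 90 in DESeq2, 5 with the replicate block, and 4 to 221 when 1 library was left out. The count of collagen chain genes past the threshold was 0. It was 2 with no filter on low counts (Col4a2 and Col4a5, edgeR adjusted p = 0.0274 and 0.0205, in a fit that called 0.909% of all genes), and 0 to 1 when 1 library was left out. For processing and receptor genes it was 0 in all settings run. The sign of Col3a1 turned with the replicate block (-0.0095), in limma-voom (-0.46) and on leaving out libraries (-0.096 to 0.87). Leaving out 1 library also turned the signs of Col1a1 (-0.047 to 0.81), Col1a2 (-0.098 to 0.67), Col6a1 (-0.0062 to 1.04), Col9a3 (-0.31 to 0.036) and Col16a1 (-0.32 to 0.063). These are the ones among the chains picked by level or smallest p. Signs turned in many other chains too, such as Col6a3 (-0.023 without trained replicate 3) and Col27a1 and Col7a1 (0.11 and 0.12 without trained replicate 1). In the ratios of partner chains the log2 difference ran, over these fits, from -0.056 to 0.21 for Col1a1 to Col1a2, -0.042 to 0.17 for Col4a1 to Col4a2, -0.57 to 0.11 for Col4a3 to Col4a4, -0.31 to 0.022 for Col5a1 to Col5a2 and -0.16 to 0.40 for Col8a1 to Col8a2. The fibrillar median was 0.014 with upper-quartile scaling and -0.25 to 0.17 when 1 library was left out, the median of the other chains -0.27 to 0.11, and the type IV median stayed between -0.70 and -0.37 in all fits run. Same-numbered libraries of the 2 groups did not deviate together (correlations of -0.18, -0.091 and -0.13). With deviations from means of 3 libraries this cannot exclude a pairing, and the labels name none. The block changed no collagen call. Depth limits Col4a3, Col4a4 and the chains under 50 reads. The causes of these shifts were not tested.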
